A study of Mus musculus with 18 samples.

Results

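The genes described here act in the release, reception and transmission of the Hedgehog signal: the co-receptors Gas1, Boc and Cdon, the Scube proteins Scube1, Scube2 and Scube3, the receptor Ptch1 and the transcription factors Gli1, Gli2 and Gli3. They were taken by gene symbol from the count table, where all 10 were found among 55486 genes, and 8 of the 10 had enough reads to be tested. Scube2 and Gli1 did not pass the filter on low counts. The genes were chosen by name, after a first analysis of these libraries had already singled out Gas1 for its difference between the cell types and Scube3 for its difference between media in CD26- cells. Gas1 and Scube3 were thus selected on measured differences between these groups, and the other members for their place in the same pathway. The comparisons in which Gas1 and Scube3 had been seen are given for every member as descriptions without a test. They are CM in CD26- NFs and the cell types in either medium, and for Gas1 and Scube3 every comparison of groups.

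RNA-seq was done on normal fibroblasts (NFs) sorted from mammary glands of FVB/n mice into CD26- and CD26+ cells, CD26 being the surface protein encoded by Dpp4. Per the study's methods the glands came from female mice of 8 to 16 weeks, several mice were pooled per sort, the sorted cells were EpCAM-, CD49f-, CD45- and CD31-, and they were grown on collagen in high serum for a few passages. Each culture then spent 7 days in a control conditioned medium, or else in conditioned medium (CM) of a tumour cell line of WEPtn mice, which develop invasive lobular carcinoma through WapCre-driven gene loss that includes Cdh1. There were 3 control libraries and 6 CM libraries of each cell type (samples 1 to 3 and 4 to 9 for CD26-, samples 10 to 12 and 13 to 18 for CD26+), and each of the 6 lines (13-MCB-17, 10-SJK-221, 18-MCB-12, 13-MCB-44, 13-MCB-90 and 13-MCB-138) conditioned 1 culture of each cell type. The labels do not say which libraries came from separate sorts, so the p-values measure the spread between these libraries, which may be partly technical.

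Hedgehog ligands are lipid-modified secreted proteins whose release from the producing cell is helped by Dispatched and the Scube proteins. On the receiving cell the ligand binds Ptch1 together with Gas1, Boc or Cdon, which frees Smo from inhibition by Ptch1 and lets the Gli proteins, which pass through the primary cilium, regulate transcription, Gli2 mainly as an activator and Gli3 mainly as a repressor. Ptch1, Gli1 and the decoy receptor Hhip are classical targets of the pathway, and in many organs epithelium makes the ligand while the neighbouring mesenchyme responds.

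Total counts ran from 9725723 to 14585349 per library. Levels are CPM (counts scaled to library size, with TMM factors), and 3 counts, taken as the most that a count of 0 allows, corresponded to 0.203 to 0.29 CPM, which covers counting error only. The fibroblast genes Pdgfra and Pdgfrb were present in every library (at least 217 and 508 CPM). The sorting marker Dpp4 had 0 to 2 counts in all 6 control libraries, and in CM it lay at 0.0776 to 0.881 CPM in CD26- NFs and 0.715 to 7.80 CPM in CD26+ NFs, so in control medium the RNA did not separate the sorted cell types by this gene. The summed level of 13 epithelial markers was 4559 to 5067 CPM in CD26- control, 2818 to 4645 in CD26- CM, 741 to 1348 in CD26+ control and 666 to 1605 in CD26+ CM libraries. These sums did not overlap between the cell types. A fit with the epithelial level as a covariate therefore cannot tell that level apart from the cell type, and its wider errors can lose a call. The summed level of 9 fibroblast markers was 16525 to 18490, 9813 to 21488, 62522 to 79501 and 29191 to 52131 CPM in the same order of groups. Most of it came from the collagen genes Col1a1, Col1a2 and Col3a1. Sums were 23.7 to 54.6 CPM for 8 immune cell markers, 2.27 to 9.16 CPM for 6 endothelial markers and for 6 pericyte markers 159.8 to 173 CPM in CD26- control, 56.9 to 109 in CD26- CM, 59.0 to 77.9 in CD26+ control and 59.4 to 98.4 in CD26+ CM libraries. In such bulk libraries, fewer cells of a type and less RNA per cell cannot be told apart.

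The 10 genes ran from nearly undetected to abundant. Divided by exonic length (CPM per kb), Gas1 was the most abundant of them in CD26+ control (55.7 ± 5.04 CPM per kb, SD, n = 3) and in CD26+ CM (63.6 ± 9.12, n = 6). In CD26- CM libraries it had the highest mean (11.0 ± 1.65, n = 6) but overlapped with Boc (8.32 to 13.4 against 4.73 to 11.9 CPM per kb). In CD26- control libraries Boc came first (9.46 ± 0.739 CPM per kb, n = 3), followed by Gli3, Gas1 and Cdon between 5.75 and 6.13 CPM per kb, whose neighbours in that order overlapped. Ptch1 and Gli2 followed in every group at 1.33 to 2.77 CPM per kb, the Scube genes stayed at or below 1.39, and Gli1 at or below 0.0904. In CD26+ CM libraries Gas1 did not overlap with the next gene, whereas Boc and Cdon overlapped, as did Cdon and Gli3.

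**Figure D1:**
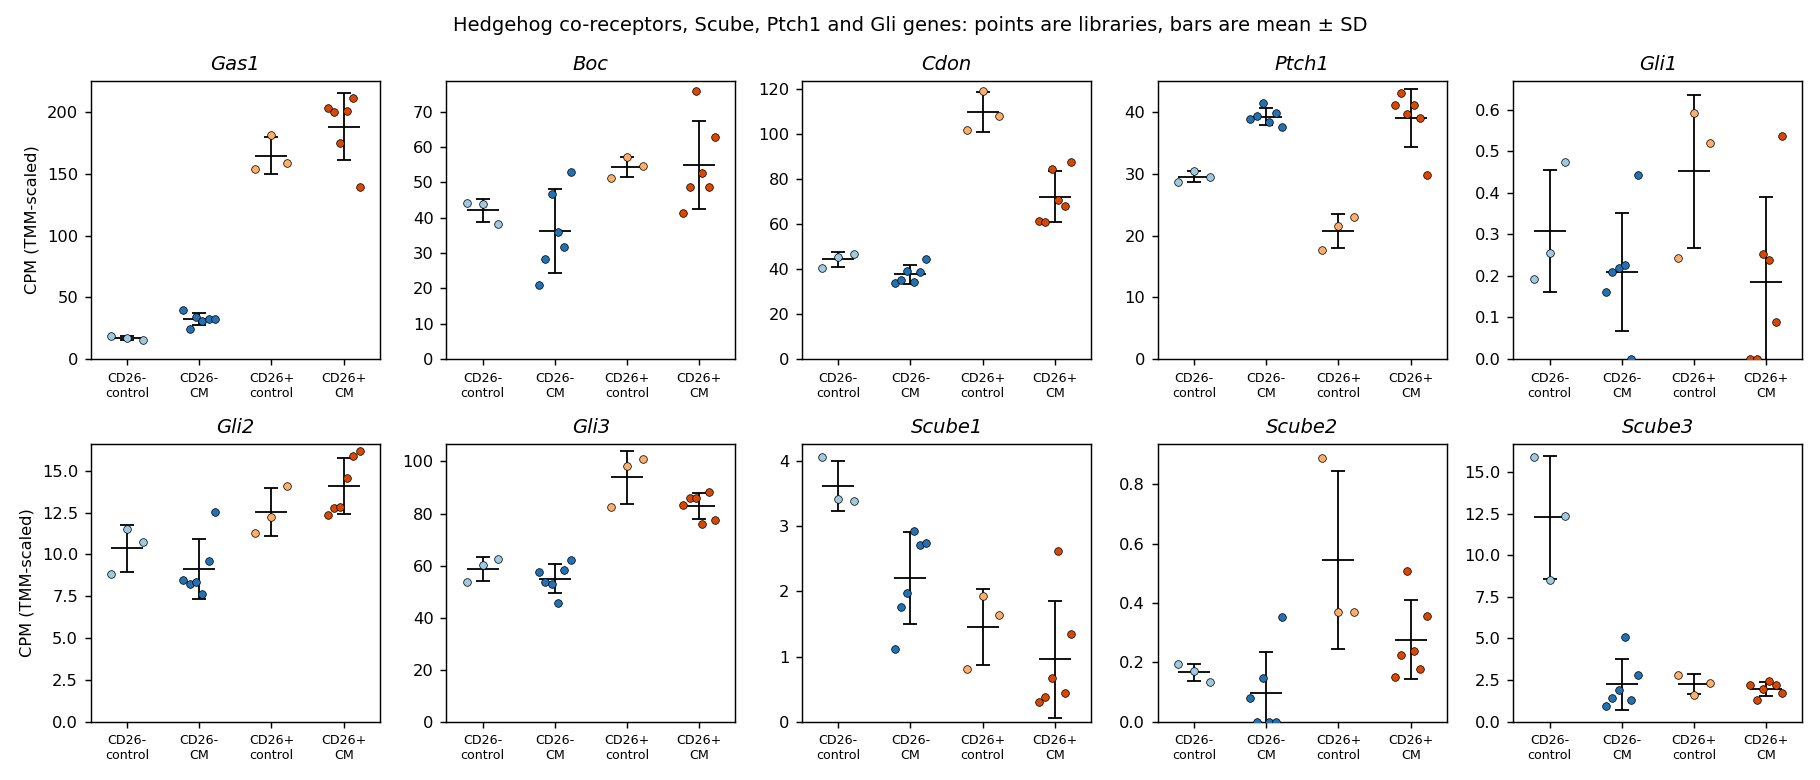
Level of each of the 10 genes in CPM (y axis, linear from 0, own scale per gene) in the 4 groups (x axis), where points are libraries and bars are the mean ± SD of 3 control or 6 CM libraries. Gas1, Cdon and Gli3 are higher in CD26+ NFs in both media, Ptch1 is higher in CM in both cell types, and Gli1 and Scube2 stay below 1 CPM.

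The promoters of Ptch1, which differed between media in both cell types, and of Gas1, the most abundant member in CD26+ NFs, are shown because Gli proteins act through a short DNA motif. RefSeq (GRCm38.p6) held a promoter entry for 8 of the 10 genes, all but Boc and Gli1, and the 250 bases before the annotated start were searched on both strands. The Gli motif GACCACCCA was in 0 of the 8 windows and in 74 of 32851 promoter windows of the same length (0.225%). Its inner part ACCACCC, which lies within the longer motif, was in the Gli2 window only and in 3.92% of all windows. The Ptch1 window is before a start that lies inside the gene's annotated span, so other starts of that gene were not covered. CG dinucleotides are in capitals.
Ptch1, chr13:63565736-63565985, minus strand: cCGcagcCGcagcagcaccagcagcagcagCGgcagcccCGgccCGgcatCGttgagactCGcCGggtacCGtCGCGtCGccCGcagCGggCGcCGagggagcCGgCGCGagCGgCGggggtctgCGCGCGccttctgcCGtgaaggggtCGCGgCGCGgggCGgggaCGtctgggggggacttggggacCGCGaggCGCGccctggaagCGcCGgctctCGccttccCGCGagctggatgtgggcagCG
Gas1, chr13:60177536-60177785, minus strand: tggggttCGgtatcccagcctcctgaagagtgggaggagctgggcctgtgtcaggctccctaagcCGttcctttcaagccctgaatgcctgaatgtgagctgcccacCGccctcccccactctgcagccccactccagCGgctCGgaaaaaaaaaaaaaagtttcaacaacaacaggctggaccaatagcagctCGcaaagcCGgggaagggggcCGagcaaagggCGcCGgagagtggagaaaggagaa
Ptch1's window held 41 CG dinucleotides, more than 98.9% of all promoter windows, and Gas1's held 10, where the median of all windows was 6. Gli3 (34), Scube2 (27), Scube1 (25) and Gli2 (22) also lay above the upper quartile of 16, Scube3 had 13, and Cdon, whose entry is likewise inside its gene, had 1. The starts used for Gli3 and Scube3 also lie inside their annotated spans, so other starts of these genes were not covered.

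Gas1 is a surface protein anchored by a lipid tail that binds Hedgehog ligand together with Ptch1. Its 1 annotated exon lies at chr13:60174405-60177365 (GRCm38, minus strand). It was higher in CD26+ than in CD26- NFs in both media. In CD26- NFs it was at 18.6, 17.3 and 15.6 CPM in the 3 control libraries and between 24.6 and 39.7 CPM (median 32.7) in the 6 CM libraries. The CD26+ NFs had 154, 182 and 159 CPM of Gas1 in control medium and between 139 and 211 CPM (median 200.4) in CM. Control and CM libraries did not overlap in CD26- NFs and did overlap in CD26+ NFs, while the cell types did not overlap in either medium. The log2 difference between cell types (CD26+ minus CD26-) was 3.27 in control medium and 2.54 in CM, and within each CM line the CD26+ level was 4.26 to 8.12 times the CD26- level. The log2 difference between media was 0.92 ± 0.14 (SE) in CD26- NFs and 0.19 in CD26+ NFs. With the epithelial marker level as a covariate, the cell type difference was 3.30 ± 0.28 in control medium and 2.57 ± 0.22 in CM. Gas1 shares 589 exonic bases with Gm48488 on the opposite strand, and since the strand setting of the counting is not stated, reads from that stretch are uncertain.

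Boc and Cdon are related surface proteins of the immunoglobulin superfamily that bind Hedgehog ligand beside Ptch1. In CD26+ NFs CM lowered Cdon and left Boc without a detectable change. Cdon (chr9:35421128-35507652) was at 102, 119 and 108 CPM in CD26+ control libraries and between 60.8 and 87.5 CPM (median 69.5) in CD26+ CM libraries, with no overlap. The fall was 0.61 on the log2 scale (log2 difference -0.61 ± 0.11, edgeR FDR 0.000537). In CD26- NFs Cdon was at 40.7, 45.4 and 46.9 CPM in control medium and at 34.0 to 44.6 CPM (median 36.8) in CM, where the ranges overlapped (log2 difference -0.24 ± 0.11). Boc (chr16:44485049-44558897) was at 51.3, 57.0 and 54.7 CPM in CD26+ control libraries and between 41.3 and 75.9 CPM (median 50.7) in CD26+ CM libraries. The Boc ranges overlapped and its log2 difference of 0.02 ± 0.22 did not pass the test (edgeR FDR 0.969), changing sign with upper-quartile scaling (-0.02). In CD26- NFs Boc was at 44.2, 43.7 and 38.3 CPM in control medium and between 21.1 and 53.0 CPM (median 33.8) in CM.

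The difference of the CM effect between cell types (effect in CD26+ minus effect in CD26-) was -0.37 for Cdon, which did not pass the test (edgeR FDR 0.16). With the CM line as a block, which pairs the cultures given the same medium, it was -0.37 ± 0.09 with FDR 0.0165, and without the CD26+ culture in 13-MCB-138 medium its FDR was 0.0473. For Boc it was 0.24 ± 0.31 (FDR 0.687). Between cell types Cdon was 1.31 higher (log2) in CD26+ NFs in control medium and 0.94 higher in CM, and Boc 0.37 and 0.61 higher, with the Boc ranges overlapping in CM. With the epithelial covariate these differences were 1.12 ± 0.24 and 0.77 ± 0.21 for Cdon, and 0.10 ± 0.47 and 0.36 ± 0.41 for Boc.

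Ptch1 is the receptor that holds Smo inactive and is itself transcribed when the pathway is active. It lies at chr13:63508328-63573598 (minus strand). It was at 28.8, 30.5 and 29.4 CPM in CD26- control libraries and at 37.6 to 41.6 CPM (median 39.1) in CD26- CM libraries. Ptch1 in CD26+ NFs was at 17.7, 21.6 and 23.0 CPM in control medium and at 29.8 to 43.1 CPM (median 40.4) in CM. Control and CM libraries did not overlap in either cell type. In CD26+ NFs Ptch1 rose by a log2 difference of 0.91 ± 0.10 (edgeR FDR 4.28e-06), and in CD26- NFs the log2 difference was 0.41 ± 0.09. The CM effect was 0.50 ± 0.13 larger in CD26+ than in CD26- NFs (edgeR FDR 0.0297). This is also the cell type difference in CM minus that in control medium, which are given here only as descriptions, so the test is not independent of them. That FDR was 0.0505 to 0.0997 when any 1 of 7 libraries was left out (CD26- control samples 1, 2 and 3, CD26+ control samples 10 and 11, and the CD26+ cultures in 10-SJK-221 and 13-MCB-44 medium), with log2 differences of 0.39 to 0.51. In control medium Ptch1 was lower in CD26+ than in CD26- NFs, with no overlap (log2 difference -0.51), and in CM the cell types overlapped (-0.01), at means of 39.0 ± 4.71 and 39.3 ± 1.37 CPM (SD, n = 6 each). With the epithelial covariate these log2 differences were -0.61 ± 0.20 and -0.10 ± 0.17.

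**Figure D2:**
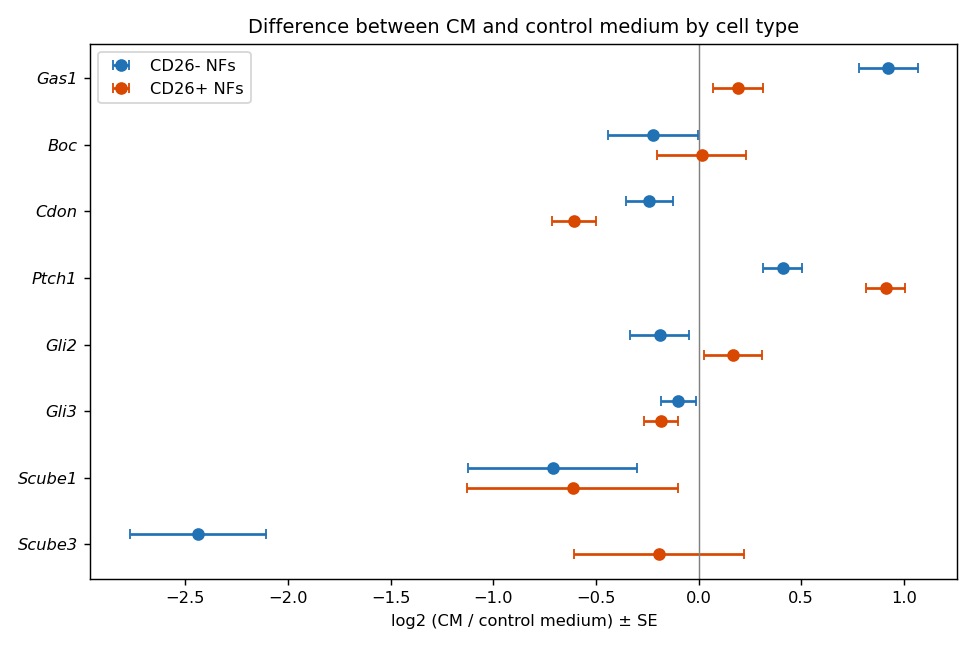
Log2 difference between CM and control medium (x axis, points with SE bars) for the 8 tested genes (y axis) in CD26- and CD26+ NFs, fitted over all 18 libraries. Ptch1 lies above 0 in both cell types, Cdon in CD26+ NFs lies at -0.61, and Scube3 in CD26- NFs (-2.44) lies farthest from 0.

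The Gli factors carry the signal to the nucleus. Gli1 (chr10:127329882-127341974), the activator that the pathway itself induces, had 0 to 8 counts per library. Its counts summed to 12 over the 3 CD26- control, 16 over the 6 CD26- CM, 18 over the 3 CD26+ control and 13 over the 6 CD26+ CM libraries, and 3 of the CM libraries had none. The groups overlapped in each comparison of media or cell types, and with so few counts Gli1 was not tested. Gli1 also shares 265 exonic bases with Gm47200 and 62 with Arhgap9 on the opposite strand. Gli2 (chr1:118834132-119053619) was at 8.81, 11.5 and 10.8 CPM in CD26- control and 7.66 to 12.6 CPM (median 8.41) in CD26- CM libraries. In CD26+ NFs Gli2 was at 11.3, 12.2 and 14.1 CPM in control medium and 12.4 to 16.2 CPM (median 13.7) in CM, so the media overlapped in both cell types. Its log2 difference between media in CD26+ NFs was 0.17 (edgeR FDR 0.402) and the difference of the CM effects was 0.36 (FDR 0.283), neither of which passed. Gli3 (chr13:15463235-15730026) was at 53.6, 60.4 and 62.5 CPM in CD26- control and 45.8 to 62.0 CPM (median 55.6) in CD26- CM libraries. In CD26+ NFs Gli3 was at 82.4, 98.2 and 101 CPM in control medium and 75.8 to 88.1 CPM (median 84.4) in CM. Gli3 did not overlap between the cell types in either medium (log2 0.67 and 0.59 higher in CD26+ NFs), and its log2 difference between media in CD26+ NFs of -0.18 did not pass (edgeR FDR 0.112), but did without CD26+ control sample 10 (-0.27, FDR 0.037). The difference of the CM effects was -0.08 for Gli3 (FDR 0.716). Gli2 was 0.27 and 0.63 higher (log2) in CD26+ NFs in control medium and CM, and 0.43 ± 0.31 and 0.77 ± 0.26 with the epithelial covariate. With that covariate the Gli3 cell type difference was 0.42 ± 0.18 in control medium and 0.36 ± 0.15 in CM. Gli3 shares 188 exonic bases with Gm6556 on the opposite strand.

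The Scube genes encode secreted proteins that carry lipid-modified Hedgehog ligand away from the cell that makes it. Scube3 (chr17:28142141-28174854) was at 15.9, 8.54 and 12.4 CPM in the CD26- control libraries and between 0.961 and 5.10 CPM (median 1.65) in the CD26- CM libraries. Scube3 in CD26+ NFs was at 2.83, 1.63 and 2.30 CPM in control medium and at 1.28 to 2.46 CPM (median 2.07) in CM. Only the CD26- control libraries stood apart from the other groups. They also stood apart by the summed pericyte markers given above, mostly Mcam and Cspg4 (means of 93.6 and 51.9 CPM there). Of the 5 tested markers, 2 fell with CM in CD26- NFs, where 7.28% of all genes fell (Rgs5 by -2.19, edgeR FDR 0.000273, and Mcam by -1.49, FDR 0.00163). In control medium Rgs5, Cspg4 and Mcam were higher in CD26- than in CD26+ NFs. Abcc9 and Notch3 were lower (1.07 against 3.87 and 12.8 against 18.3 CPM). The part of these markers in the CM differences of CD26- NFs was not tested. For Scube3 the log2 difference between media was -2.44 ± 0.33 in CD26- NFs and -0.19 in CD26+ NFs, and between cell types it was -2.44 in control medium and -0.20 in CM. The last value turned to 0.23 without the CD26- culture in 13-MCB-44 medium. With the epithelial covariate the cell type difference was -0.43 ± 0.70 in control medium and 1.64 ± 0.61 in CM. Scube3 shares 198 exonic bases with AC126937.2 on the opposite strand.

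Scube1 (chr15:83604999-83725021) was at 4.07, 3.42 and 3.38 CPM in CD26- control and 1.12 to 2.93 CPM (median 2.35) in CD26- CM libraries, with no overlap. In CD26+ NFs it was at 0.809, 1.93 and 1.63 CPM in control medium and 0.303 to 2.62 CPM (median 0.560) in CM, where counts were only 4 to 33 per library. Its log2 difference between media was -0.71 ± 0.41 in CD26- NFs, and in CD26+ NFs it was -0.61 and did not pass the test (edgeR FDR 0.402). Without the CD26+ culture in 13-MCB-44 medium, the highest of its group, it was -1.26 with FDR 0.0346. The difference of the CM effects for Scube1 was 0.10 (FDR 0.951). Scube1 was lower in CD26+ NFs by log2 differences of -1.29 in control medium and -1.20 in CM, and with the epithelial covariate these became 0.53 ± 0.94 and 0.34 ± 0.79. Scube2 (chr7:109798676-109865679) had 0 to 11 counts per library and was at or below 0.890 CPM throughout. Its counts summed to 6, 7, 21 and 20 in CD26- control, CD26- CM, CD26+ control and CD26+ CM libraries.

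Among the 6 members other than Gas1 and Scube3 that were tested, 1 rose and 1 fell with CM in CD26+ NFs, where 15.2% of all 14273 genes tested rose and 13.4% fell. For the difference of the CM effects 1 was higher in CD26+ NFs and 0 were lower by edgeR, where 4.53% of all genes were higher and 3.01% lower. Cdon was the 1 member lower at an unadjusted p under 0.05, and DESeq2 also gave 0. These comparisons share the CD26+ control libraries. For the comparisons that had been seen when the genes were chosen, the counts are only a description. Of the 8 tested members, 2 (Gas1, Ptch1) were past FDR 0.05 as higher and 1 (Scube3) as lower with CM in CD26- NFs (7.88% and 7.28% of all genes). In control medium 3 were past it with the higher level in CD26+ NFs and 3 with the lower (25% and 25.4% of all genes). In CM these numbers were 5 and 1 (29.3% and 29.3%).

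Whether the source of the CM mattered was tested among the 12 CM libraries, with the cell type as a term and each line represented by 1 culture of each cell type. A line can thus not be told apart from the batch of medium it conditioned. Boc differed among the 6 lines (edgeR F test, FDR 0.0171), and was the 1 of 8 tested members to pass, where 6.56% of 13344 genes did. In CD26- NFs Boc was at 21.1 CPM with 13-MCB-17, 28.2 with 10-SJK-221, 31.7 with 13-MCB-90, 36.0 with 13-MCB-44, 46.8 with 18-MCB-12 and 53.0 with 13-MCB-138 medium. In CD26+ NFs it was at 41.3, 48.8, 48.6, 52.6, 75.9 and 62.7 CPM with the same lines. The lowest level was with 13-MCB-17 and the highest levels were with 18-MCB-12 and 13-MCB-138 in both cell types. Boc was higher in the CD26+ culture with every line, 1.18 to 1.96 times the CD26- level. The FDR of Boc was 0.0617 without the 18-MCB-12 cultures and 0.00287 to 0.0383 without any other line.

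Cdon's levels ran close to Boc's across lines (34.0 with 13-MCB-17 to 44.6 CPM with 13-MCB-138 in CD26- NFs, 60.8 with 10-SJK-221 to 87.5 CPM with 13-MCB-138 in CD26+ NFs), but it did not pass (edgeR FDR 0.0532; DESeq2 0.0188). After removal of the group means, Boc and Cdon had a Pearson correlation of log2 levels of 0.72 over the 18 libraries, which share media, given as a description. The summed fibroblast markers were highest with 13-MCB-138 (21488 CPM) and 18-MCB-12 (16325) in CD26- NFs and with the same lines in CD26+ NFs (52131 and 50857), against 9813 to 15450 and 29191 to 41296 CPM with the other lines. Collagen genes made up most of these sums (means of 14686 CPM for Col1a1, 10537 for Col1a2 and 6633 for Col3a1 in CD26+ CM, of 39288 in all). The markers did not go together. In CD26+ NFs 13-MCB-138 medium gave the highest Col1a2, Col3a1 and Thy1 and the lowest Pdgfra, Dcn and Lum. The part of these markers in the Boc difference was not tested.

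Scube1 and Scube3 were highest with 13-MCB-44 in both cell types. With that line Scube1 was at 2.93 CPM in CD26- NFs and 2.62 in CD26+ NFs, against 1.12 to 2.74 and 0.303 to 1.34 with the others. Scube3 was at 5.10 and 2.46 CPM, against 0.961 to 2.83 and 1.28 to 2.22. Neither passed the test among lines (FDR 0.192 and 0.309). The summed epithelial markers were also highest with 13-MCB-44 (4645 CPM in CD26- and 1605 CPM in CD26+ NFs), and their part in these levels was not tested. FDRs were 0.215 for Gli2, 0.468 for Ptch1, 0.472 for Gli3 and 0.555 for Gas1. Ptch1 varied little among lines in CD26- NFs, as its 6 levels from 37.6 to 41.6 CPM show.

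**Figure D3:**
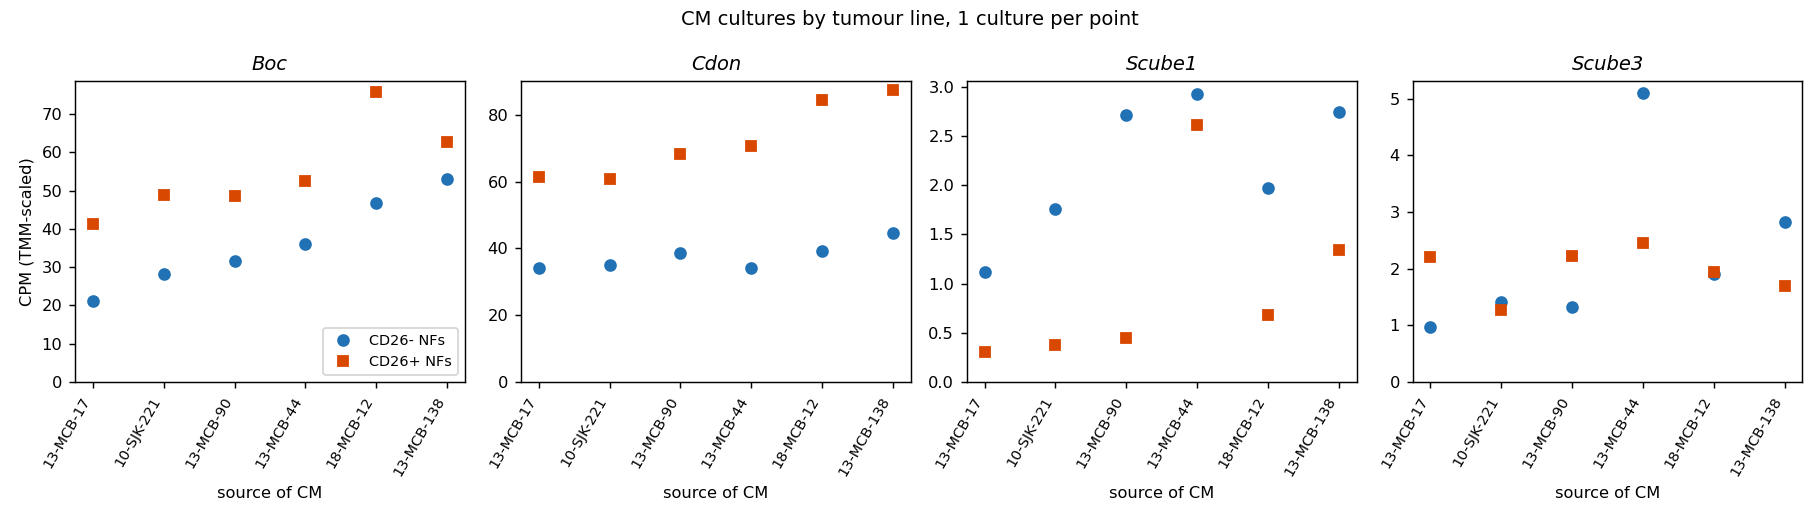
Levels in CPM (y axis, linear from 0) of Boc, Cdon, Scube1 and Scube3 in the CM cultures by tumour line (x axis), 1 culture per point. Boc is lowest with 13-MCB-17 and highest with 18-MCB-12 or 13-MCB-138 in both cell types, and Scube1 and Scube3 are highest with 13-MCB-44.

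The other genes of the pathway were taken from lists by role. Of the ligands, Shh had 0 counts in all 18 libraries, Ihh had 0 to 18 counts and was not tested, and Dhh was the ligand that passed the filter on low counts. Dhh was at 1.55, 1.37 and 0.948 CPM in CD26- control and 1.68 to 3.37 CPM (median 2.20) in CD26- CM libraries, and at or below 0.976 CPM in all CD26+ libraries. Dhh had 0 to 11 counts in CD26+ libraries and passed the filter only through CD26- NFs, so its log2 differences between cell types, -2.27 ± 0.64 in control medium and -2.68 ± 0.39 in CM, are a description. They were -1.41 ± 1.19 and -1.92 ± 0.95 with the epithelial covariate. With CM Dhh did not overlap in CD26- NFs, where its log2 difference of 0.88 did not pass (edgeR FDR 0.147) but did when only those groups were fitted (FDR 0.0436). Of the 4 tested genes that make or release ligand, 1 passed the test of CM in each cell type, where 7.28% of all genes fell in CD26- and 13.4% in CD26+ NFs. In both cases this was a fall of Disp1, which exports the ligand (-0.32, FDR 0.0443 in CD26- and -0.46, FDR 0.00271 in CD26+ NFs). The CD26- call of Disp1 was lost in 14 of 24 alternatives (FDR up to 0.153). Hhat, the enzyme that adds palmitate to the ligand, was higher in CD26+ NFs in control medium (1.07, FDR 1.21e-05) and in CM (0.66, FDR 3.18e-05). With the epithelial covariate these values were 0.39 (FDR 0.241) and 0.054 (FDR 0.879), so both calls were lost.

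Hhip, a membrane decoy that binds Hedgehog ligand, fell with CM in both cell types. It was at 18.4, 21.3 and 16.6 CPM in CD26- control and 4.16 to 9.68 CPM (median 7.29) in CD26- CM libraries. Hhip in CD26+ NFs was at 10.5, 9.56 and 11.9 CPM in control medium and 0.675 to 6.26 CPM (median 1.86) in CM. The media did not overlap in either cell type, and the log2 differences were -1.41 ± 0.32 (edgeR FDR 0.00717) in CD26- and -2.17 ± 0.37 (FDR 0.000315) in CD26+ NFs. Hhip and Ptch1, both classical pathway targets, thus moved in opposite directions. The difference of its CM effects was -0.77 ± 0.50 (FDR 0.362), and without the CD26+ culture in 13-MCB-138 medium it was -1.31 ± 0.35 (FDR 0.0171). Hhip was lower in CD26+ than in CD26- NFs in CM (-1.58, FDR 0.000518), a call lost with the epithelial covariate (-0.85, FDR 0.482), and in control medium it did not pass (-0.81, FDR 0.0787).

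Smo, the membrane protein that Ptch1 holds inactive, was at 94.4 to 101 CPM in CD26- control and 95.3 to 102 CPM in CD26- CM libraries, with no detectable change (log2 0.02 ± 0.04, edgeR FDR 0.817). In CD26+ NFs it was at 149, 162 and 147 CPM in control medium and 123 to 132 CPM (median 128) in CM, a fall of 0.26 on the log2 scale (FDR 0.000194). The CM effect on Smo was lower in CD26+ than in CD26- NFs by a log2 difference of -0.28 ± 0.06 (FDR 0.0112; 0.0746 with no filter on low counts). Smo was higher in CD26+ NFs by 0.64 in control medium (FDR 2.39e-08) and 0.36 in CM (FDR 1.05e-07), and with the epithelial covariate by 0.55 (FDR 0.00119) and 0.29 (FDR 0.0232). Of 3 other receptors and antagonists, 2 fell with CM in CD26- NFs (Hhip and Lrp2) and 2 in CD26+ NFs (Hhip and Smo), where 7.28% and 13.4% of all genes fell. The call of Lrp2, a large endocytic receptor at 6 to 28 counts in CD26- libraries (-0.97, FDR 0.0325), was lost in 10 of 24 alternatives.

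Further target genes of the pathway gave 3 that rose and 1 that fell of 8 tested in CD26- NFs (7.88% and 7.28% of all genes), and 4 that rose and 1 that fell in CD26+ NFs (15.2% and 13.4%). Their median log2 differences were 0.50 and 0.68, where the medians over all tested genes were 0.005 and -0.004. The gene that fell was Hhip in both. Ccnd2, which encodes a D-type cyclin, rose in both (0.46 ± 0.09, edgeR FDR 0.00351 in CD26- and 0.87 ± 0.09, FDR 4.73e-06 in CD26+ NFs). Foxf1, a forkhead factor of mesenchyme, rose in CD26- NFs (1.64 ± 0.24, FDR 0.000446), from 3.19 to 3.42 CPM in control medium to 6.65 to 16.2 CPM in CM. Ccnd1, another D-type cyclin, rose in CD26+ NFs (1.32 ± 0.26, FDR 0.00104). Between cell types, in control medium 2 of the 8 had the higher level in CD26+ NFs and 3 the lower (25% and 25.4% of all genes), and in CM these numbers were 2 and 4 (29.3% and 29.3%). Ccnd1 was lower by log2 differences of -1.98 (FDR 1.94e-05) and -1.19 (FDR 5.43e-05). With the epithelial covariate its call in control medium was kept (-1.78, FDR 0.0462). The call in CM was lost (FDR 0.17), while its log2 difference stayed between -1.322 and -1.002 over all alternatives. Foxf1 was lower in CM (-1.55, FDR 1.64e-06; -1.63, FDR 0.0304 with the covariate). Ccnd2 was higher by 0.33 (FDR 0.0145) and 0.74 (FDR 1.98e-07), and with the covariate by 0.14 (FDR 0.709) and 0.57 (FDR 0.0327). Most of these genes also respond to other signals.

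**Figure D4:**
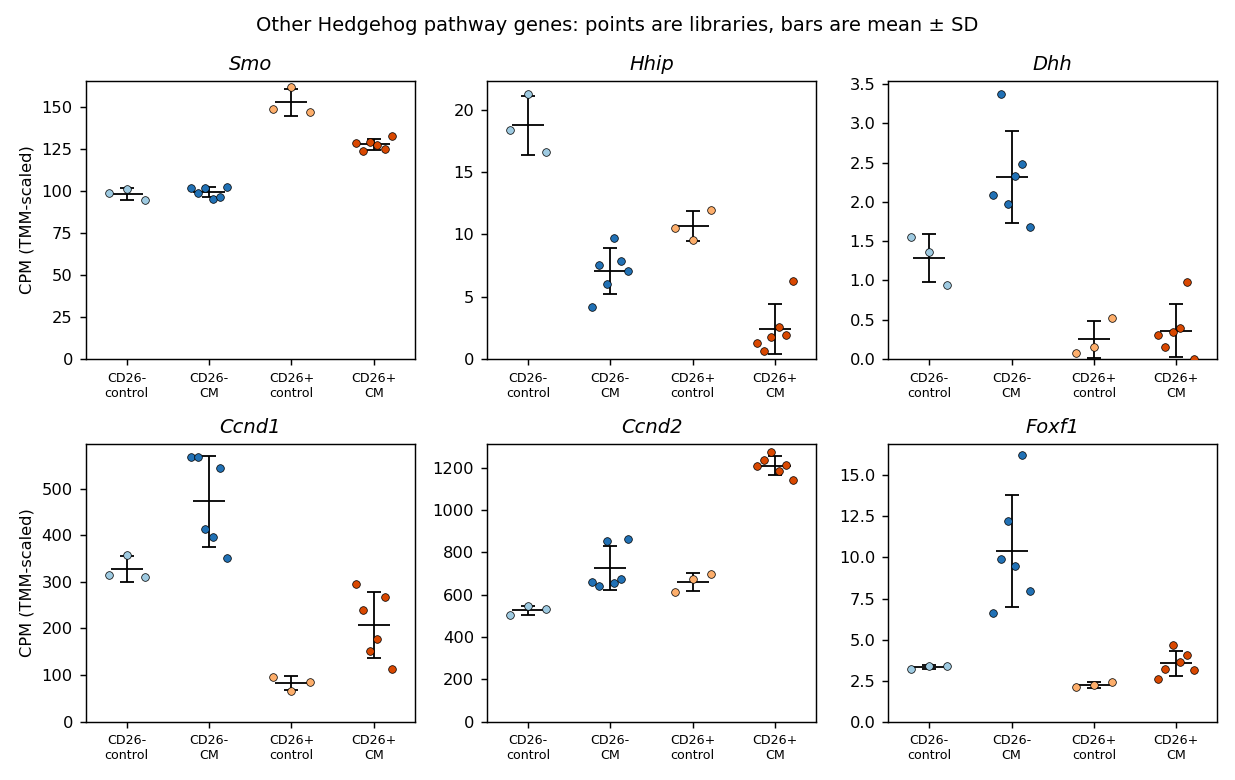
Levels in CPM (y axis, linear from 0, own scale per gene) of Smo, Hhip, Dhh, Ccnd1, Ccnd2 and Foxf1 in the 4 groups (x axis), where points are libraries and bars are the mean ± SD. Hhip is lower in CM in both cell types, Ccnd2 is higher, and Dhh is at 1 CPM or below in all CD26+ libraries.

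Glypicans, surface proteoglycans that bind Hedgehog ligand, had all 5 tested genes higher in CD26+ NFs in CM and 2 of 5 in control medium, where 29.3% and 25% of all genes were. Gpc3 was higher by 1.55 ± 0.24 in control medium (edgeR FDR 3.75e-05) and 2.42 ± 0.17 in CM (FDR 4.13e-09), and Gpc6 by 1.24 ± 0.15 (FDR 2.37e-06) and 1.03 ± 0.10 (FDR 2.29e-07). With the epithelial covariate the Gpc3 call in control medium was lost (1.33, FDR 0.0567), while the call in CM (2.22, FDR 0.000919) and both calls of Gpc6 (FDR 0.00905 and 0.0099) held. With CM 1 of the 5 fell in CD26- NFs and 1 rose in CD26+ NFs, beside 7.28% and 15.2% of all genes. Gpc2 was the one that fell (-1.13 ± 0.30, FDR 0.0178), a call lost without CD26- control sample 1 (FDR 0.0816) or 3 (FDR 0.1). Gpc3 was the one that rose (0.74 ± 0.19, FDR 0.00855; 0.0512 without control sample 10). Of 11 regulators downstream of Smo, those higher in CD26+ NFs numbered 5 in control medium and 7 in CM, and those lower numbered 3 and 2. Over all genes 25% and 29.3% were higher and 25.4% and 29.3% lower. Kif7, a cilium motor protein that regulates Gli, was higher by 1.11 ± 0.13 (FDR 2.93e-06) and 0.95 ± 0.09 (FDR 1.41e-07), and with the epithelial covariate by 0.64 (FDR 0.0629) and 0.52 (FDR 0.0686), which lost both calls. With CM, 2 of the 11 rose in each cell type and 1 fell in CD26+ NFs, beside 7.88% of all genes rising in CD26- NFs, 15.2% rising in CD26+ NFs and 13.4% falling there. Among those that rose was Spop, an adaptor for Gli degradation, which rose in both (0.18, FDR 0.00932 and 0.36, FDR 1.08e-05). The CM effect was lower in CD26+ NFs for 2 of the 11 (3.01% of all genes), Evc, a protein of the cilium base (-0.49, FDR 0.0342), and Prkaca, a catalytic subunit of protein kinase A (-0.31, FDR 0.0286), and these calls were lost in 9 and 6 of 24 alternatives. Of 6 genes of the primary cilium, 1 passed the test of CM, as a fall of Ift88, an intraflagellar transport protein, in CD26+ NFs (-0.37, FDR 0.0335), a call lost in 9 of 24 alternatives. Over all genes 13.4% fell in that comparison. The cell type calls of Disp2, Mycn, Evc2, Gpr161, Grk2, Ift172, Ift88, Kif3a and Tulp3 were lost with the epithelial covariate, but their values did not move alike. Over all alternatives Kif3a ran from -0.25 to -0.21 in control medium and -0.30 to -0.23 in CM, and Ift88 from -0.54 to -0.38 in CM. Tulp3 ran from 0.0090 to 0.28 in control medium and -0.082 to 0.15 in CM. Lrp2 had 3 to 8 counts in CD26+ control and 2 to 7 in CD26+ CM libraries and passed the filter only through CD26- NFs. Its cell type differences (-1.94 and -1.11) are thus a description. Sufu, an inhibitor of Gli, kept its higher level in CD26+ NFs in CM (0.51, FDR 2.23e-06, and 0.00997 with the covariate). The epithelial list, by comparison, had 10 of 12 tested genes lower in CD26+ NFs in each medium.

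By Pearson correlation of log2 CPM over all 18 libraries, leaving out genes whose mean was under 5 CPM, the genes most like Gas1 were Cpxm1 (0.991), Ngly1 (0.990) and Man2a2 (0.987). Those most like Scube3 were Zkscan5 (0.947), Lpin2 (0.936) and Ube2h (0.935). Those most like Ptch1 were Ampd3 (0.973), Prdx6 (0.965) and Ankrd40 (0.965). By Spearman correlation the first 3 genes included Ngly1 for Gas1 and Ube2h for Scube3, while those for Ptch1 (Slco3a1, Cxcl1 and Adora2b) were none of the genes above, so the genes named depend on the measure. The libraries share groups and media, so these values describe a common pattern over the 4 groups.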

How the data were processed

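Polyadenylated RNA of 18 cultures was sequenced from stranded TruSeq libraries. The authors deposited raw counts per Ensembl gene. The submitters' processing notes name HISAT2 (2.1.0), HTSeq and GRCm38, while the HTSeq version, strand setting and annotation release are not given in the sources used here. Groups and CM lines came from the sample labels. The 10 members and the gene lists were chosen with earlier results of these data known. Here the counts were tested in R (4.3.3) with edgeR (4.0.16), using TMM scaling, filterByExpr and the quasi-likelihood F test on all 18 libraries with 1 term per group, and with Benjamini-Hochberg adjustment (FDR) over 14273 genes. Log2 values used a prior count of 2, and the common BCV (biological coefficient of variation) came to 0.117. The call was FDR under 0.05, and the study's further limit of 2 on the log2 scale was an alternative, as were DESeq2 (1.42.0), other scalings, no filter, the CM line block, an epithelial covariate and leaving out libraries. The test among lines used the 12 CM libraries with cell type and line terms. One row without a gene symbol or identifier held 0 counts. The CM line pairs the cultures by design. The residuals of same-line cultures correlated at 0.247 to 0.406 in all 6 pairs, against -0.315 to 0.242 for different lines. Replicates differed by more than sampling noise (chi-square per degree of freedom at least 3.1). Exonic lengths and overlaps came from GENCODE M21. Members were all named. Of the other lists, the ligands and receptors were named, along with genes from the up to 2 per list and direction with the smallest p past the FDR and 1 CPM or more as the mean of some group. The text gives part of the genes and comparisons this rule selects, with some by name alone, and an item of these lists is not reported here. Scripts were tested on simulated counts.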

Additional observations from a re-analysis of the deposited data

Results flagged for a closer look

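In the CD26+ CM group, Ptch1 in the culture with 13-MCB-138 medium was far below the others, at 29.8 CPM against 39.1 to 43.1 CPM, a gap of 0.698 of the group's range (Dixon's limit is 0.625 for 6 libraries). It was the 1 such library in 20 sets of a member and a CM group, and chance alone gives about 1 in 20. Without it the CM effect on Ptch1 in CD26+ NFs was 0.97 ± 0.07 (edgeR FDR 2.08e-08). The same culture had the highest Hhip of its group (6.26 CPM against 0.675 to 2.54) and the lowest Gas1 (139 CPM), Dpp4 (0.715 CPM) and Ccnd1 (113 CPM). In CD26- NFs 13-MCB-138 medium likewise gave the lowest Ptch1 (37.6 CPM) and Ccnd1, but neither the highest Hhip nor the lowest Gas1 or Dpp4. Among lines Ccnd1 differed (edgeR F test, FDR 0.0162) and Ptch1 did not pass (FDR 0.468).

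The CM effect on Ptch1 differed between the cell types by 0.50 on the log2 scale in the test of the difference itself, and by 0.56 ± 0.09 without that culture (FDR 0.000693). In 8 of 24 alternatives, 7 of them with another library left out, the test of the difference was no longer passed (FDR up to 0.0997, or the study's log2 limit).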

How the results depend on the processing

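The FDR calls of Ptch1 and Cdon with CM in CD26+ NFs kept their direction and side under every alternative except the study's log2 limit of 2, under which, of the 6 members other than Gas1 and Scube3, 0 were past the limits as higher and 0 as lower for CM in CD26+ NFs and 0 for the difference of the CM effects (over all genes 287 and 56 were past that limit). Of all 8 tested members, 0 were higher with CM in CD26- NFs under that limit and Scube3 was lower (-2.44), 1 was higher and 1 lower between cell types in control medium, and 1 higher and 0 lower in CM (129, 852 and 594 over all genes). Those past it in these comparisons were Gas1 and Scube3, which were chosen on differences between these groups, so these counts are a description only. Of the 6, leaving out single libraries gave 1 to 2 lower with CM in CD26+ NFs, and 0 to 1 higher and 0 to 1 lower for the difference of the CM effects, where 2756 to 4971 and 339 to 2345 of all genes passed. The CM line block gave 1 of the 6 lower for that difference (Cdon; 2516 of all genes passed in either direction, against 1075 without it) and changed no other call of the tested members where it applied. Of the 8, the epithelial covariate gave 2 higher and 0 lower in control medium (Gli3 was lost as higher), and 2 higher and 0 lower in CM, where 1442 and 1586 of all genes passed, against 7186 and 8360 without it. That covariate cannot be told apart from the cell type, and errors were wider with it (for Boc in control medium 0.25 without and 0.47 with it). Members differing among lines numbered 2 with DESeq2, 2 with RLE scaling and 4 with no filter, and 0 to 1 without single lines, where over all genes 1374, 893, 2475 and 430 to 1420 did, against 876 in the reported fit.

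With upper-quartile scaling Boc with CM in CD26+ NFs was -0.017. With the epithelial covariate Scube1 became 0.53 and 0.34 and Foxf2 -0.012 and -0.17 in control medium and CM, and Tulp3 -0.082 in CM. Over single left-out libraries the values ran from -0.0086 to 0.040 for Smo with CM in CD26- NFs, -0.11 to 0.077 for Boc and -0.079 to 1.53 for Dhh with CM in CD26+ NFs, and -0.55 to 0.33 for Scube1 and -0.96 to 0.65 for Dhh in the difference of the CM effects, and, between cell types in CM, from -0.35 to 0.23 for Scube3 and -0.040 to 0.056 for Ptch1. The causes were not tested. Depth limits the values of genes with few counts, among them Gli1, Scube2, Dhh and Scube1.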
